A study of Mus musculus with 4 samples.

Results

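The genes described here encode proteins of plasminogen activation and coagulation, and several protease inhibitors, in mouse de-differentiated fat (DFAT) cells. They are the plasminogen activators Plau and Plat, the receptor Plaur, the coagulation starter F3, and the protease inhibitors Serpine2, Serpinb2, Serpinb1a, Serpinb6c and Serpinb9b. These 9 genes were chosen by name, partly because clade B serpins had been seen to lie lower with Mkl1 siRNA, so the values of that comparison describe the choice and test nothing. Probe sets of the array with a single gene symbol were found for 8 of the 9, through 11 probe sets, out of 18193 named genes. Serpine2 was not analysed here. All 8 were among the 11600 genes analysed, those with a signal at or above 5.69, the median of the whole table, on at least 1 array. For each gene the probe set with the highest mean signal was used, and the other probe sets of members are given beside it.

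Total RNA of DFAT cells, fibroblast-like cells that arise when mature fat cells lose their lipid, was hybridised to 4 single-colour Affymetrix arrays. The groups were cells transfected with Mkl1 siRNA, cells transfected with control siRNA, cells treated with Y-27632, an inhibitor of the ROCK kinases, and cells treated with DMSO. Every group came from the same kind of cell, kept in serum-containing DMEM, and the labels give no genotype, strain, age, dose, duration or siRNA sequence. Each group was 1 array, so the differences below carry no p-value, nothing measures their spread, and precision is limited by the number of arrays. Mkl1, now named Mrtfa, encodes a coactivator of the transcription factor SRF that is held back by monomeric actin, and ROCK promotes the actin polymerisation that releases it. The comparisons ask how expression differs when this route is targeted at either step, and how far it was reduced is not shown here.

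Plasminogen activators cut plasminogen into plasmin, a protease that dissolves fibrin, degrades matrix proteins and activates matrix metalloproteinases. The urokinase receptor holds urokinase at the cell surface, and in adipose tissue this system takes part in the matrix remodelling that goes with fat cell formation. Serpins block serine proteases by offering a loop that the protease cuts and is then trapped on. Clade B serpins lack a classical secretion signal and act mostly inside cells, where they restrain proteases that leak from granules or lysosomes.

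The stretches of 250 bases before annotated transcription starts (RefSeq, build GRCm38.p6) are shown for 4 members, Serpinb2 and Serpinb9b as the clade B members furthest from control siRNA, and Plaur and F3 because they hold the same short motif as Serpinb2. Windows were found for 5 of the 8 measured members. The motifs searched on both strands were the AP-1 motif TGANTCA, the TEAD motif GGAATG, the TATA box TATAAA and the CArG box, the letters that SRF binds. Capitals mark every match, and the matches shown do not overlap.
Serpinb2, chr1:107511173-107511422, plus strand: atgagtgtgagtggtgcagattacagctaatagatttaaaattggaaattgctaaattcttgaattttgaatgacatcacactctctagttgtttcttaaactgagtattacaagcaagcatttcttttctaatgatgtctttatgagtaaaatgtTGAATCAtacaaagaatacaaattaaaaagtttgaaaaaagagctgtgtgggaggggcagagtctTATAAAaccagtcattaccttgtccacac
Serpinb9b, chr13:33027164-33027413, plus strand: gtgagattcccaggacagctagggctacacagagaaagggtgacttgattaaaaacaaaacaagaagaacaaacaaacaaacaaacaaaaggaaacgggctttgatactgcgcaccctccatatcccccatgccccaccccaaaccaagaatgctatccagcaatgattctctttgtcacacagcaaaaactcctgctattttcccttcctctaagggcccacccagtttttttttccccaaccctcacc
Plaur, chr7:24462233-24462482, plus strand: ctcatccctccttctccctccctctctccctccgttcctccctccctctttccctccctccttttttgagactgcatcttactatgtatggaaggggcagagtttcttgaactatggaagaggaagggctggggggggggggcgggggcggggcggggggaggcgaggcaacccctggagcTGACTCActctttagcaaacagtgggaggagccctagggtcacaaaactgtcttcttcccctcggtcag
F3, chr3:121723287-121723536, plus strand: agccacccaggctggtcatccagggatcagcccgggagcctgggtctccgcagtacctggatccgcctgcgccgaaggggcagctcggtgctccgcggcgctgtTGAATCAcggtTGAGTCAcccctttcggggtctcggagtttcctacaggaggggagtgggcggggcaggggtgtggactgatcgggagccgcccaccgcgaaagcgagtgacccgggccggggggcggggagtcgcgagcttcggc

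The Serpinb2 window held a TATA box 29 to 24 bases and an AP-1 motif 94 to 88 bases before the start. A later start annotated for Serpinb2 had the same matches further upstream. One AP-1 motif stood 69 to 63 bases before the Plaur start and another pair stood 146 to 140 and 135 to 129 bases before the F3 start. Over all 32851 windows of this length, 6.75% held the AP-1 motif, 12.4% the TATA box, 12.6% the TEAD motif and 1.47% the CArG box. The Serpinb9b window, and that of Serpinb6c, held none of the 4. Of the 8 analysed clade B genes with a window, 2 held the AP-1 motif, 1 the TATA box, 2 the TEAD motif and 0 the CArG box. These matches describe letters in a short window and say nothing of binding.

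Array medians lay between 5.67 and 5.71. The targeted transcript Mrtfa had a log2 signal of 7.70 on the Mkl1 siRNA array and 8.55 on the control siRNA array, and of 8.18 with Y-27632 and 8.32 with DMSO. The Mkl1 siRNA array differed by -0.85 from control siRNA and by -0.62 from DMSO, short of 2-fold. All 11 fibroblast and mesenchymal markers passed the filter, as did 11600 of 18193 named genes. All 9 adipocyte markers on the array passed it too, so passing does not tell these cell types apart. With Mkl1 siRNA 10 of the 11 fibroblast and mesenchymal markers lay below control siRNA, beside 49.8% of all analysed genes, with a median of -0.31. Col1a1, a chain of type I collagen, differed by -1.05, while the marker Dcn lay higher, at 0.60. Against DMSO 8 of the 11 lay lower, beside 50.7% of all analysed genes. The summed linear signal of all 11 was 96797 with Mkl1 siRNA, 118883 with control siRNA, 120697 with Y-27632 and 118464 with DMSO. The part of this in the member differences was not tested. All 9 adipocyte markers measured lay higher in both treatments, with a median difference of 1.93 with Mkl1 siRNA and 2.60 with Y-27632. Of the 11600 analysed genes, 5807 lay above 0 with Mkl1 siRNA and 5849 with Y-27632. In cultures, fewer cells of a type and less RNA per cell cannot be told apart.

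The first comparison set Mkl1 siRNA against control siRNA. Every one of the 8 members lay lower with Mkl1 siRNA, and the 4 clade B members, Serpinb2, Serpinb9b, Serpinb1a and Serpinb6c, lay at least 2-fold lower. Over all analysed genes 1.74% were at least 2-fold lower and 49.8% lay below 0. The activators, the receptor and F3 differed by less than 2-fold. The Mkl1 siRNA array was the lowest of the 4 arrays for 8 of 8 members, as it was for 31.6% of all analysed genes.

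Serpinb2, plasminogen activator inhibitor 2, an inhibitor of urokinase that is also found inside cells, had the widest range of the members. Its log2 signal was 5.93 with Mkl1 siRNA, 9.09 with control siRNA, 9.36 with Y-27632 and 10.10 with DMSO. The Mkl1 siRNA array stood apart at the bottom, close to the filter value, while the other 3 arrays lay between 9.09 and 10.10, with DMSO the highest. The difference between Mkl1 siRNA and control siRNA was -3.15, a ratio of 0.112, the 4th lowest among the analysed genes. RMA compresses signals near background, and after an offset of 32 was added to the linear signals the difference was -2.63.

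Serpinb9b, 1 of several mouse copies related to Serpinb9, had log2 signals of 8.22 with Mkl1 siRNA, 10.18 with control siRNA, 9.26 with Y-27632 and 9.65 with DMSO. Here the control siRNA array was the highest and Mkl1 siRNA again the lowest. The difference was -1.96, a ratio of 0.256, the 17th lowest of all analysed genes. Against DMSO the Mkl1 siRNA array differed by -1.43, so this gene was at least 2-fold lower against either control array.

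Serpinb1a, an inhibitor of neutrophil elastase and related proteases, had log2 signals of 7.71 with Mkl1 siRNA, 9.54 with control siRNA, 8.02 with Y-27632 and 8.10 with DMSO. Only the control siRNA array stood apart, and it stood above the other 3. The difference between Mkl1 siRNA and control siRNA was -1.82, a ratio of 0.282. Against DMSO the Mkl1 siRNA array differed by -0.39, short of 2-fold. The second Serpinb1a probe set, which may bind several transcripts and lay below the filter on every array, differed by -1.19 from control siRNA and by -0.08 from DMSO.

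Serpinb6c, 1 of the mouse Serpinb6 copies, was the weakest member. Its log2 signals were 5.05 with Mkl1 siRNA, 6.24 with control siRNA, 5.43 with Y-27632 and 5.74 with DMSO. It passed the filter through both control arrays, and both treated arrays were below the filter value. The difference of -1.19 with Mkl1 siRNA corresponds to a ratio of 0.438. It shrank to -0.72 with the offset on the linear signals and to -0.69 against DMSO. Its only probe set may bind several transcripts, so signal of related Serpinb6 genes cannot be told apart from its own.

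**Figure D1:**
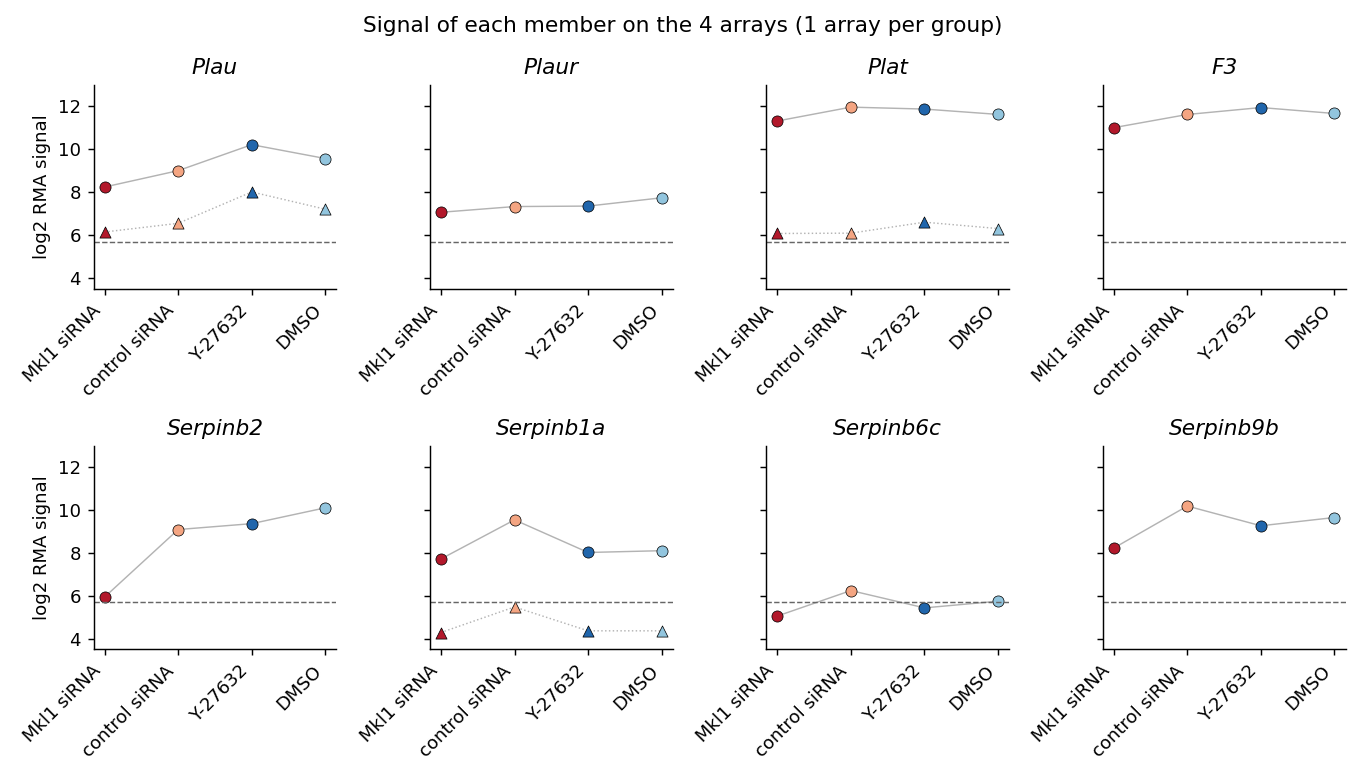
Log2 RMA signal (vertical axis) of the 8 members on the Mkl1 siRNA, control siRNA, Y-27632 and DMSO arrays, 1 array per group. Circles are the probe set used, triangles a second probe set, thin lines join 1 probe set and the dashed line is the filter at 5.69; Serpinb2 lies at 5.93 with Mkl1 siRNA and above 9 on the other arrays, whereas Serpinb1a stands out only with control siRNA, at 9.54.

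Plau encodes urokinase, the activator that works at the cell surface. It had log2 signals of 8.24 with Mkl1 siRNA, 9.0 with control siRNA, 10.21 with Y-27632 and 9.57 with DMSO. Mkl1 siRNA was the lowest array and Y-27632 the highest, so the treatments lay on opposite sides of their controls. The difference with Mkl1 siRNA was -0.76, a ratio of 0.589, and reached -1.33 against DMSO. The second Plau probe set kept the same order of the arrays, at 6.14, 6.54, 8.01 and 7.20, with a difference of -0.41.

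Plat encodes tissue-type plasminogen activator, the secreted activator that acts on fibrin. Its log2 signals were 11.32 with Mkl1 siRNA, 11.96 with control siRNA, 11.87 with Y-27632 and 11.62 with DMSO. The Mkl1 siRNA array lay below the other 3, which ran from 11.62 to 11.96. The difference of -0.65 was seen on this probe set, while the second, much weaker probe set differed by -0.01.

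F3 encodes tissue factor, the receptor for factor VII that starts coagulation. Its log2 signals were 11.01 with Mkl1 siRNA, 11.62 with control siRNA, 11.95 with Y-27632 and 11.67 with DMSO. The control arrays differed by -0.05, and Mkl1 siRNA differed from control siRNA by -0.62 and from DMSO by -0.66.

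Plaur, the urokinase receptor, differed least. It had log2 signals of 7.06 with Mkl1 siRNA, 7.32 with control siRNA, 7.35 with Y-27632 and 7.73 with DMSO, read by 1 probe set that may bind several transcripts. The DMSO array was the highest, and the difference of -0.27 with Mkl1 siRNA was smaller than the -0.41 between the control arrays.

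**Figure D2:**
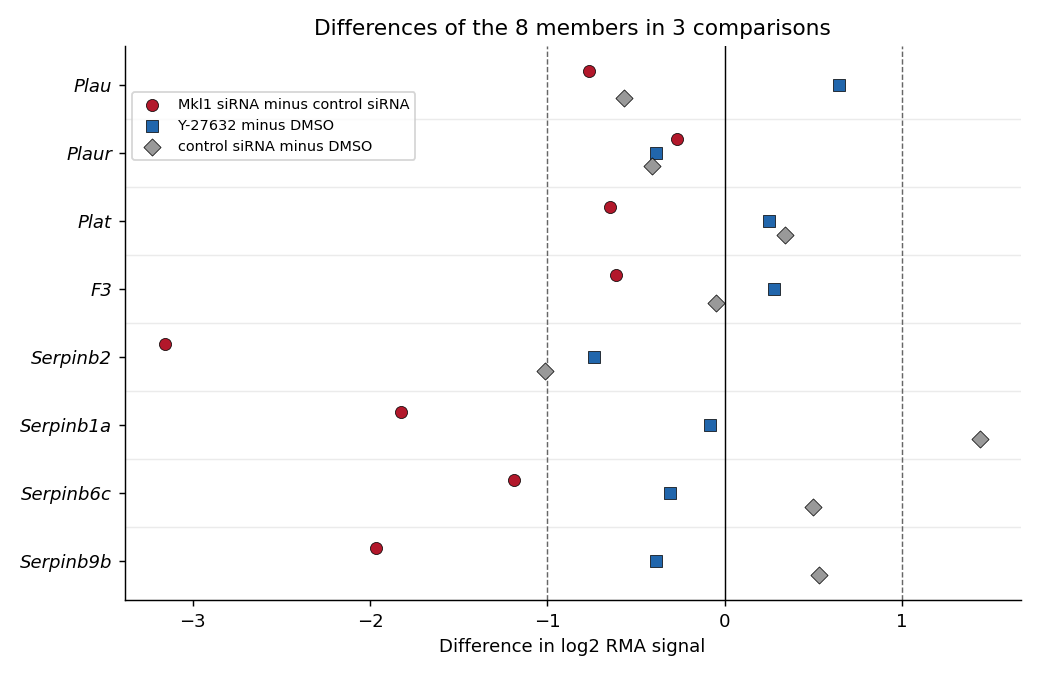
Difference in log2 RMA signal (horizontal axis) for each of the 8 members in 3 comparisons, 1 point per comparison. Dashed lines mark 2-fold; with Mkl1 siRNA the 4 clade B members lie beyond -1, whereas with Y-27632 no member passes either line.

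The clade as a whole was then described. Of 18 clade B genes named on the array, 9 passed the filter. All 9 lay lower with Mkl1 siRNA, with a median of -0.60 beside 0.00 over all analysed genes, and 4 of them were the members above. Lower clade B values in this comparison were part of the choice of the group, so they describe that choice. The 5 clade B genes outside the group had a median of -0.44, and 0 of them were at least 2-fold lower, beside 1.74% of all analysed genes. The member nearest to 2-fold was Serpinb6c at -1.19, and the gene next to it outside the group was Serpinb6a, an inhibitor of trypsin-like proteases, at -0.60. Serpinb6a had log2 signals of 13.15 with Mkl1 siRNA, 13.74 with control siRNA, 13.18 with Y-27632 and 13.37 with DMSO. Serpinb9, the inhibitor of granzyme B, differed by -0.48, Serpinb1b by -0.44, Serpinb6e by -0.38 and Serpinb8, whose human counterpart inhibits furin, by -0.35. The second Serpinb9 probe set differed by -0.58. The 2 Serpinb8 probe sets differed in sign, at -0.35 and 0.09. The probe sets of Serpinb6a and Serpinb6e may bind several transcripts.

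The control siRNA array was the highest of the 4 for 8 of the 9 clade B genes, Serpinb2 being the exception, and for 23.9% of all analysed genes. Against DMSO all 9 lay lower with Mkl1 siRNA, with a median of -0.39, where 50.7% of all analysed genes lay below 0. The control siRNA and Mkl1 siRNA arrays made up the comparison by which the group was chosen. The values in this paragraph so far use those arrays, and so describe that choice too. Of the 9, 2 were at least 2-fold lower, Serpinb2 at -4.17 and Serpinb9b at -1.43. Among the 8 members 3 were at least 2-fold lower than DMSO, the third being Plau, beside 3.23% of all analysed genes. The 9 clade B genes that did not pass the filter had log2 signals from 2.74 to 4.62. With Mkl1 siRNA they lay between -0.30 and 0.14 of control siRNA, with a median of -0.07, and 8 of them lay below 0. Over all analysed genes, which exclude these 9, 49.8% lay below 0. This too is the comparison by which the group was chosen. Of 4 serpins of other clades that passed the filter, 2 lay below 0, beside that same 49.8%, and the differences of the 4 ran from -0.16 to 0.10. Serpinh1, the collagen chaperone, differed by -0.16 and Serpinf1, an inhibitor of blood vessel growth, by -0.10, or by -0.31 on its second probe set.

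**Figure D3:**
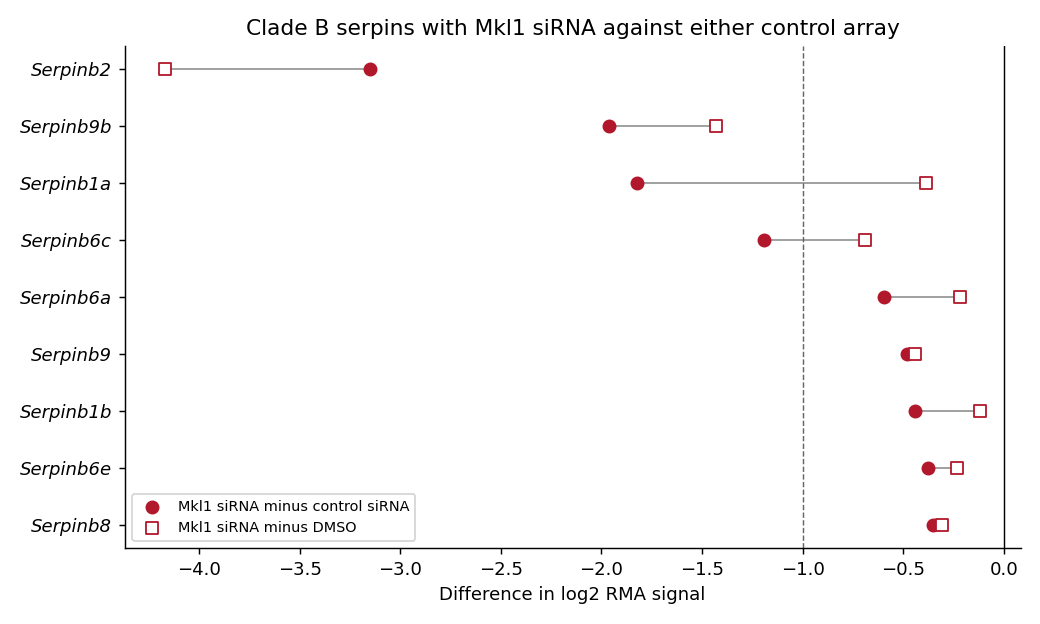
Difference in log2 RMA signal (horizontal axis) of the 9 analysed clade B serpins between Mkl1 siRNA and control siRNA (filled circles) and between Mkl1 siRNA and DMSO (open squares). All points lie below 0, but Serpinb1a and Serpinb6c cross the dashed 2-fold line only against control siRNA.

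Position was read from a RefSeq table of genes (assembly GRCm38.p6), used here to find neighbours. Mouse clade B genes lie in a cluster on chromosome 1, which holds Serpinb2 and Serpinb8, and in a cluster on chromosome 13, which holds the other 7 analysed genes. The chromosome 13 genes had a median of -0.60 with Mkl1 siRNA, from -1.96 to -0.38. The nearest 3 analysed genes on either side of that cluster, a choice made after values were seen, had a median of -0.15, and 3 of 6 lay below 0. Among them 1110046J04Rik, the first analysed gene past Serpinb6a, differed by -1.33, Nqo2, a quinone reductase, by -0.37 and Bphl by 0.45. On chromosome 1 the neighbours of the cluster stayed between -0.21 for Dsel and 0.31 for Tsn.

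The second comparison set Y-27632 against DMSO. No member passed 2-fold in either direction, while 0.224% of all analysed genes lay that far below DMSO and 1.27% that far above it. Plau, Plat and F3 lay higher, and Plaur and the 4 clade B members lay lower, so 5 of 8 members pointed the same way in both treatments, a share near the 57.6% of all analysed genes that did. These comparisons share no array.

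Plau differed by 0.65 with Y-27632, a ratio of 1.56, and by 0.81 on its second probe set. Plat differed by 0.25 and 0.30 on its probe sets and F3 by 0.28. Of the activators and receptors only Plaur lay below DMSO, at -0.39. Against the control siRNA array Plau stood higher by 1.21, past 2-fold as 2.03% of all analysed genes were, Plat differed by -0.09 and Plaur by 0.02, on the other side of 0 than against DMSO. The second Plat probe set stayed above 0, at 0.51.

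Serpinb2 differed by -0.74 with Y-27632, a ratio of 0.599, the 76th lowest among the analysed genes. Since control siRNA was itself below DMSO for this gene, Y-27632 stood 0.28 above control siRNA. Serpinb9b differed by -0.39, Serpinb6c by -0.31 and Serpinb1a by -0.08. The 9 clade B genes had a median of -0.19, with 8 below 0 and Serpinb1b at 0.06, while 49.4% of all analysed genes lay below 0. The second probe sets of Serpinb9 and Serpinb8 differed by -0.003 and 0.009, beside -0.37 and -0.14 on those used. Against control siRNA the clade B median was -0.41, and Serpinb1a at -1.52 was the only clade B gene past 2-fold, beside 0.75% of all analysed genes. The control siRNA array is part of the comparison by which the group was chosen, so these values partly describe that choice.

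**Figure D4:**
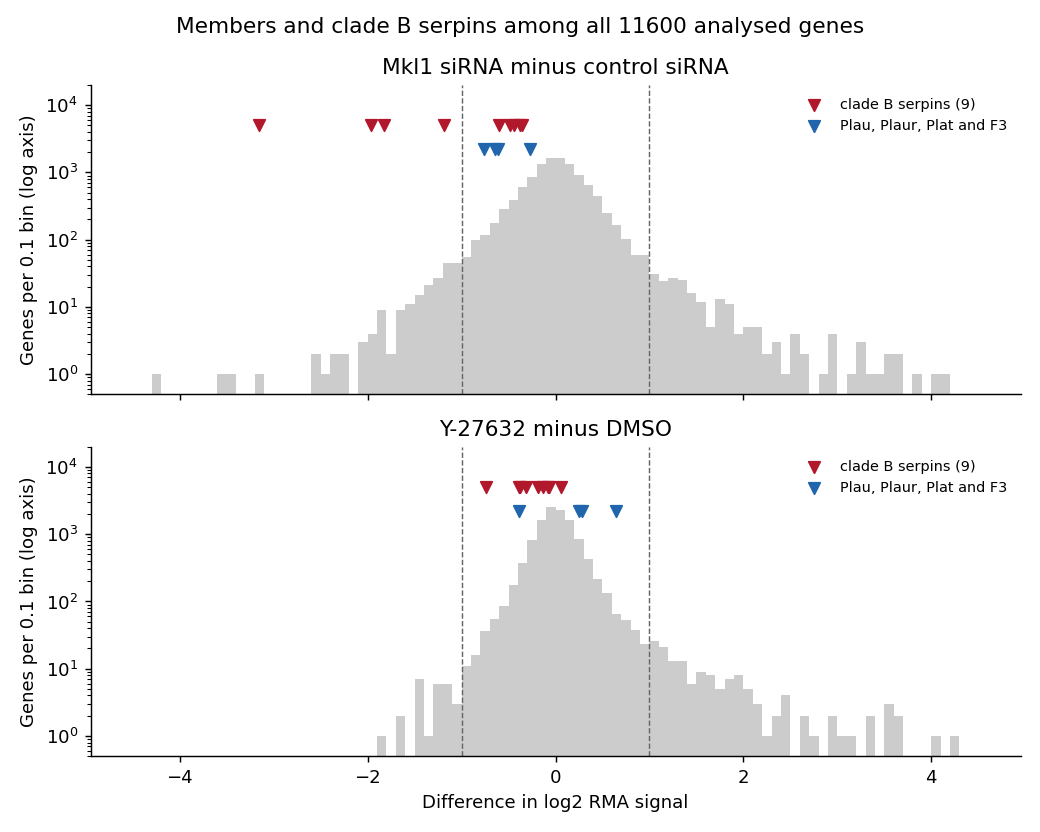
Number of genes per bin of 0.1 (log axis) by their difference in log2 RMA signal, for Mkl1 siRNA minus control siRNA (top) and Y-27632 minus DMSO (bottom), over 11600 analysed genes in grey. Red marks are the 9 clade B serpins and blue marks Plau, Plaur, Plat and F3; with Mkl1 siRNA all marks lie left of 0 and Serpinb2 lies in the far tail at -3.15, and with Y-27632 they lie between -0.74 and 0.65.

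The wider list of plasminogen activation, its receptors, cofactors and related surface proteases held 52 genes, of which 28 passed the filter, 5 of them members. With Mkl1 siRNA 21 of the 28 lay below 0, beside 49.8% of all analysed genes, and the median was -0.23. The 5 members belong to a group chosen partly by this comparison, so they add no test. Of the other 23 genes, 16 lay below 0, with a median of -0.17, and 3 were at least 2-fold lower. At least 2-fold lower were 4 of the 28, beside 1.74%. Besides Serpinb2 these were Cpb1, a carboxypeptidase, at -1.72, Tfpi2, a Kunitz inhibitor of plasmin and of the tissue factor complex, at -1.46, and Srpx2, whose human counterpart binds the urokinase receptor, at -1.39. No gene of the list was at least 2-fold higher, beside 1.79% of all analysed genes, and Met, the receptor of hepatocyte growth factor, came nearest at 0.98.

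Tfpi2 had log2 signals of 6.63 with Mkl1 siRNA, 8.09 with control siRNA, 6.83 with Y-27632 and 6.51 with DMSO. As with Serpinb1a, only the control siRNA array stood apart, and Mkl1 siRNA differed from DMSO by 0.12. Srpx2 had 9.58, 10.97, 10.29 and 10.44 on the same arrays, and differed from DMSO by -0.86. Cpb1 had 3.87, 5.58, 6.15 and 6.27, and differed from DMSO by -2.40. Its signal was above the filter value with Y-27632 and DMSO and below it on both siRNA arrays.

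Anxa2 and S100a10, whose complex binds plasminogen and tissue-type activator, differed by -0.31 and -0.02 with Mkl1 siRNA, and the plasminogen receptor Plgrkt by -0.17. Lrp1, which clears activator-inhibitor complexes, differed by -0.18. Thbd, the thrombin cofactor thrombomodulin, differed by -0.72 and the thrombin receptor F2r by -0.70. Itgb2, a leukocyte integrin chain, differed by -0.87, or by -1.91 against DMSO. Tfpi, the inhibitor of the tissue factor route, differed by -0.05 beside F3 at -0.62, and Serpinf2, the plasmin inhibitor alpha-2-antiplasmin, by 0.02.

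With Y-27632 the list had a median of 0.05, whose sign turned under 3 alternatives, with 15 of 28 above 0, beside 50.4% of all analysed genes. Past 2-fold lay 2 genes on the higher side, beside 1.27% of all analysed genes, and 0 on the lower side, beside 0.224%. Hgf, a growth factor that serine proteases activate, had log2 signals of 8.34 with Mkl1 siRNA, 8.11 with control siRNA, 8.20 with Y-27632 and 6.59 with DMSO, a difference of 1.61 with Y-27632. The DMSO array alone was low, and Y-27632 differed from control siRNA by 0.09. Fap, a surface protease of activated fibroblasts, differed by 1.11, or by 0.67 against control siRNA.

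**Figure D5:**
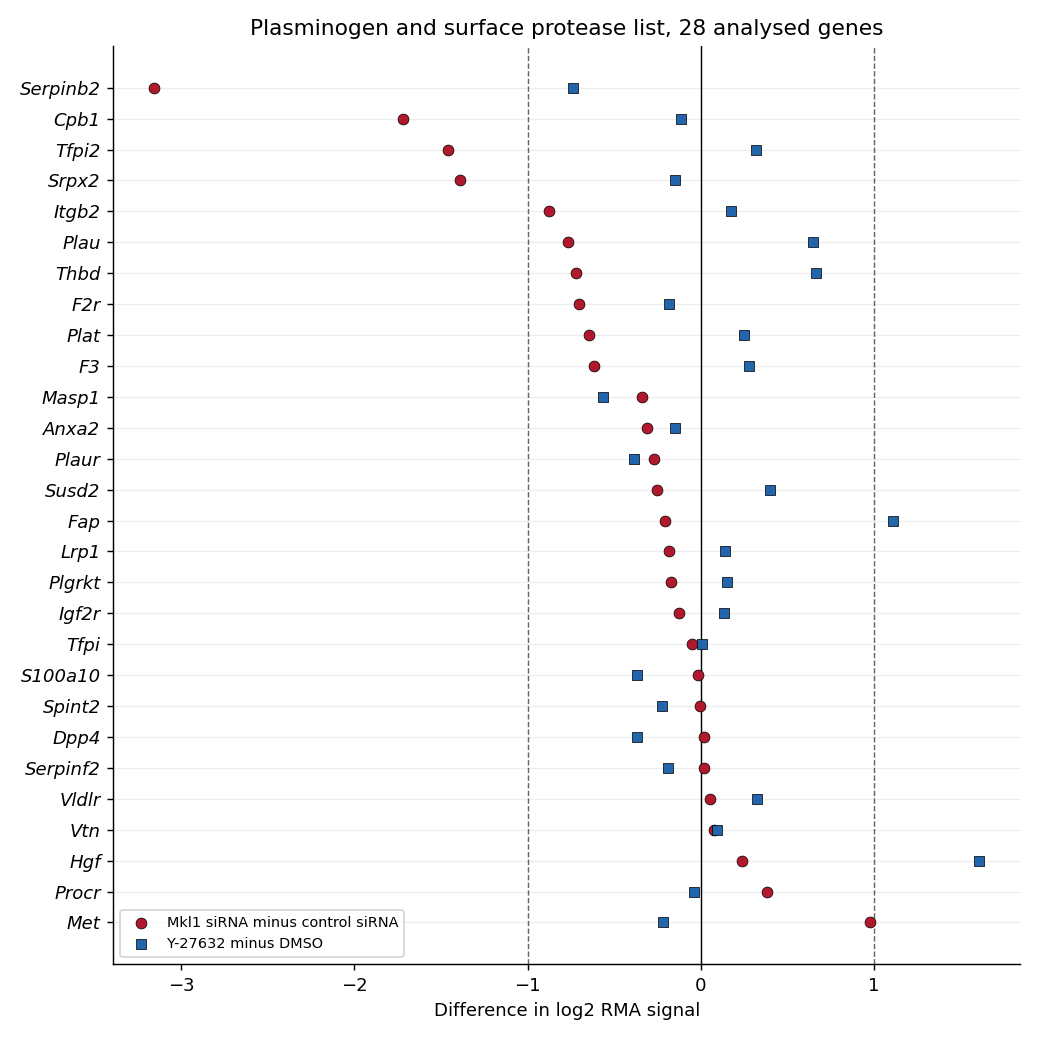
Difference in log2 RMA signal (horizontal axis) of the 28 analysed genes of the plasminogen and surface protease list, ordered by Mkl1 siRNA minus control siRNA (circles), with Y-27632 minus DMSO as squares. Dashed lines mark 2-fold; circles of Serpinb2, Cpb1, Tfpi2 and Srpx2 lie beyond the lower line, and squares of Hgf and Fap beyond the upper one.

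Between the control arrays, control siRNA minus DMSO, 1 member lay past 2-fold on the lower side, Serpinb2 at -1.01, beside 1.09% of all analysed genes, and 1 on the higher side, Serpinb1a at 1.44, beside 0.957%. Plau differed by -0.57, Serpinb9b by 0.53 and Serpinb6c by 0.50. In the wider list 5 genes were at least 2-fold lower, with the matrix protein vitronectin (Vtn) at -1.63, the lipoprotein receptor Vldlr at -1.34, Met at -1.19 and Itgb2 at -1.03 beside Serpinb2. Tfpi2 at 1.58, Hgf at 1.52 and Thbd at 1.12 were at least 2-fold higher. This comparison shares 1 array with each of the others, and control siRNA is part of the comparison by which the group was chosen.

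Several of these genes are also expressed by leukocytes and squamous epithelia, so markers of those cells were read. Of 10 macrophage and monocyte markers, 4 passed the filter, and the summed linear signal of all 10 was 1196 with Mkl1 siRNA, 1826 with control siRNA, 3257 with Y-27632 and 1605 with DMSO. The tetraspanin Cd53, which differed by -0.92 with Mkl1 siRNA and by 1.30 with Y-27632, made up most of each sum. Without it the other 9 summed to 515 with Mkl1 siRNA, 538 with control siRNA, 434 with Y-27632 and 461 with DMSO, and Lyz2, the lysozyme of macrophages, differed by -0.84 with Y-27632. The defining markers Ptprc, Adgre1, Itgam, Cd68 and Tyrobp lay below the filter on all arrays. Of 10 keratinocyte markers 4 passed the filter, and the summed linear signal of all 10 was 1064 with Mkl1 siRNA, 1310 with control siRNA, 1501 with Y-27632 and 1272 with DMSO. Without the adhesion molecule Epcam, the strongest of them, the sums were 476, 448, 493 and 425 on the same arrays. Krt14, Krt1, Ivl, Sprr1b, Trp63 and Cdh1 lay below the filter on all arrays. Summed adipocyte markers were 59420.5 with Mkl1 siRNA, 25769.5 with control siRNA, 55235 with Y-27632 and 25091 with DMSO. The part of any of these cells in the member differences was not tested.

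Genes whose pattern over the 4 arrays was most like that of Serpinb2 and of Plau were found by the Euclidean distance between log2 signals after each gene's mean was subtracted. For Serpinb2 the nearest 5 were the interferon-induced chemokine Cxcl10 at a distance of 1.07, the antiviral gene Rsad2 at 1.11, the nucleotidase Entpd2 at 1.14, Fgl2 at 1.15 and the endothelial lipase gene Lipg at 1.20. Cxcl10 differed by -2.50 and Rsad2 by -1.66 with Mkl1 siRNA. With Y-27632 Cxcl10 differed by -0.20 and Rsad2 by -0.53, beside Serpinb2 at -0.74. Entpd2, Fgl2 and Lipg lay on the other side of 0 there, at 0.11, 0.40 and 0.06. For Plau the nearest 5 lay much closer, with the metalloproteinase Adamts12 at 0.145, Lmo2 at 0.176, Dock9 at 0.180, Tpcn1 at 0.193 and Hmgcll1 at 0.201. Adamts12 differed by -0.68 with Mkl1 siRNA and by 0.76 with Y-27632, as Plau did by -0.76 and 0.65. Likeness over 4 arrays is a description only.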

How the data were processed

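The authors deposited log2 signals for each probe set on each array, and per the submitters' processing notes used RMA. This method subtracts background, equalises the distributions of arrays and summarises probes, so it compresses weak signals and hides differences in total RNA; its version was not given. That the scale is log2 was inferred from the range, 2.02 to 14.62. Of 45101 probe sets, 34958 had 1 gene symbol in the platform annotation, 932 several and 9211 none, and only the first kind was named, with symbols updated through a RefSeq gene table of assembly GRCm38.p6. The filter and the choice of probe set are given with the results. Differences and counts past 2-fold were computed with Python 3.11.15 and pandas 2.3.3. The code was also run on simulated data with planted differences, which checks the calculation and says nothing of the noise of these arrays. Genes named were the members, clade B genes past the filter, list genes at least 2-fold apart, Mrtfa and the 5 genes most like Serpinb2 and Plau; neighbours on the chromosome, other serpins, marker genes and list genes short of 2-fold were named after their values were seen. The members and lists were chosen with earlier results of these data known. Endothelial and mast or cytotoxic cell markers had 1 gene past the filter each, Kdr, which differed by 0.19, and Cd3e, which differed by 0.05 with Mkl1 siRNA. Serpine2 was not analysed here. Alternatives were other probe set rules, filters, scalings, an offset, a 1.5-fold threshold and the other control array.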

Additional observations from a re-analysis of the deposited data

How the results depend on the processing

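No paired analysis was possible because each group had 1 array, and for the same reason no array could be left out. Every member kept its direction with Mkl1 siRNA under each alternative in which it was measured, with Serpinb2 between -3.16 and -2.63 against control siRNA and at -4.17 against DMSO. Plaur and Serpinb6c were not measured with the stricter filter or when probe sets with several possible targets were left out. For clade B with Mkl1 siRNA the median was -1.15 without those probe sets, -0.33 without the filter, -1.21 with the filter at the 75th percentile (8.08), where fewer genes remained, and -0.39 against DMSO. For clade B with Y-27632 it was -0.41 against control siRNA, an array of the comparison by which the group was chosen. Between the controls the clade B median was 0.18 without such probe sets and 0.095 without the filter. For the plasminogen list with Y-27632 the median had no settled sign, at 0.15 without such probe sets but -0.024 with the mean of all probe sets, -0.013 without the filter and -0.027 against control siRNA. That list had a median of -0.12 with Mkl1 siRNA without the filter, and 0.16 between the controls with the stricter filter. Counts moved as well. At 1.5-fold, 7 members were lower with Mkl1 siRNA, beside 5.91% of all analysed genes, and with Y-27632 1 was lower, beside 1.33%, and 1 higher, beside 3%. Against control siRNA, Y-27632 also had 1 lower and 1 higher at 2-fold. With the offset of 32, 0 members were at least 2-fold lower between the controls. Beyond the genes entering, the threshold and the control array, the cause was not tested. Signals near the filter value, such as Serpinb6c, limit what these arrays can show.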

Other observations

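One further probe set, shared by Serpinb9e, Serpinb9f, Serpinb9g and Serpinb9h and so not named for any of them, had log2 signals of 4.18 with Mkl1 siRNA, 4.33 with control siRNA, 4.30 with Y-27632 and 4.78 with DMSO, all below the filter. Hgf and its receptor Met differed in opposite directions between the controls, at 1.52 and -1.19 for control siRNA minus DMSO, and with Mkl1 siRNA they stood at 0.24 and 0.98 relative to control siRNA.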
